A study of Arabidopsis thaliana with 16 samples.

Results

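Among the 22746 non-control probe sets of the Arabidopsis ATH1 array, 150 were taken as those whose signal peaked most clearly in zone 2 of 4 longitudinal zones of the root. For each probe set the log2(intensity + 16) values of the 4 arrays of a zone, over both media, were averaged. The margin was the zone 2 mean minus the highest of the other 3 zone means, and the 150 largest margins were kept. The zone levels of these 150 were therefore chosen by their values and are given below as a description, without a test. The comparison of low with standard pH, by which the choice did not rank, is tested. Because both media entered the margin, a probe set high in zone 2 at a single pH could still be chosen. Low values at a single pH in another zone could raise the margin as well. The pH effects of the members, in zone 2 and in the other zones, are therefore not independent of the choice.

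The material was root tissue of Arabidopsis thaliana seedlings of the Columbia ecotype, 6 days old, that had spent 5 days on standard medium at pH 5.7. They were then moved for 24 h to medium of pH 4.6 or, as the control, to fresh medium of pH 5.7. Both of these media contained 3 mM DMG as well as the same salts, sucrose and agar. Each of the 4 zones was sampled at each pH on 2 arrays, which gave 8 groups and 16 arrays. The labels call the zones developmental stages and do not assign a tissue to a number. Nor do they say that replicates came from separate cultures, so the p-values below rest on a spread between arrays that may be technical.

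A root grows from a meristem at its tip, where cells divide. Cells then leave the cycle, elongate many-fold, and differentiate, with root hairs appearing on the epidermis after elongation. Elongation needs a wall that yields: xyloglucan endotransglucosylase/hydrolases (XTHs) and expansins act on the cellulose-xyloglucan network, pectin methylesterases, pectate lyases and polygalacturonases act on pectin, and microtubules guide cellulose deposition. UPB1, a bHLH transcription factor, is known for setting the balance of reactive oxygen species at the transition from proliferation to elongation through class III peroxidase genes. Proton pumps acidify the wall of growing cells, and expansins loosen walls at acid pH.

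Marker genes of known tissues showed how the numbered zones differ. The root cap gene AT1G65570 had zone means of 9.52, 5.38, 5.4 and 4.6 in zones 1 to 4 on the log2(intensity + 16) scale. The median of 5 cell division genes was 7.74, 6.93, 6.00 and 6.39, although AUR1, one of them, was highest in zone 4 (8.22, 7.92, 7.72 and 8.60). The median of 4 root hair genes was 4.77, 5.4, 9.98 and 7.11. The endodermis gene GSO1 had 6.35, 7.09, 10.21 and 9.21, and the median of 3 leaf photosynthesis genes was 6.12, 6.00, 7.68 and 8.50. Of 3 cortex genes, AT1G09750 was highest in zone 2 (5.84, 7.82, 6.63 and 4.96) and was a member, AT1G62500 was highest in zone 1, and JKD varied only between 6.51 and 6.90. None of the other marker genes named here was among the 150. In bulk tissue of this kind, fewer cells of a type and less RNA per cell cannot be told apart.

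All arrays had been scaled to a trimmed mean intensity of 250, and array medians lay between 64.7 and 101. Of the 16, 4 arrays stood apart from their own replicate by over 1 log2 unit in the mean of 69 plastid-encoded probe sets. They were the second replicates of zone 2 at pH 5.7 (9.75 against 8.21 in its partner), zone 3 at pH 4.6 (9.89 against 7.90), zone 3 at pH 5.7 (10.31 against 7.76) and zone 4 at pH 5.7 (8.45 against 7.21). Correlations between replicates across the tested probe sets were 0.839 to 0.958. Precision is limited by the number of arrays. Permuting 2 against 2 arrays exactly gives no p under 0.333, so single genes were tested only in the limma fit across 15951 probe sets.

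The 150 margins ran from 2.68, a 6.39-fold excess over the next zone, to 1.00, a 2.01-fold excess, with a median of 1.22. At the threshold the last 3 members were AT1G20480 and probe set 250752_at, both at 1.011, and 258388_at at 1.005. The next 3 probe sets, AT3G21410 at 1.004, 250199_at at 1.003 and SP1L3 at 1.002, lay just outside. Zone 2 was the highest zone in 4565 of all probe sets, 20.1%. All 4 zone 2 arrays lay above the 12 other arrays in 82 members, and in 187 of all probe sets, 0.822%. In the remaining members at least 1 array of another zone overlapped zone 2.

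Of the 150, 81 stood for a single named gene, 67 were not listed in the platform annotation, 1 was assigned to several genes and 1 had a gene without a current RefSeq locus. Each of the 81 genes had 1 probe set on the array. All but AT1G20480 passed the filter on low values, and 30 of the 149 passed it through zone 2 alone. Those 30 lay below the filter threshold in zones 1, 3 and 4. They are included in the member shares and medians of the low pH effect given below for each zone and for the mean. The medians of the members' zone means were 7.03, 8.76, 6.98 and 5.84 in zones 1 to 4. The second-highest zone was zone 1 for 76 members, zone 3 for 64 and zone 4 for 10, while zone 4 was the lowest for 110. The heatmap of the 150 shows these different shoulders.

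**Figure D1:**
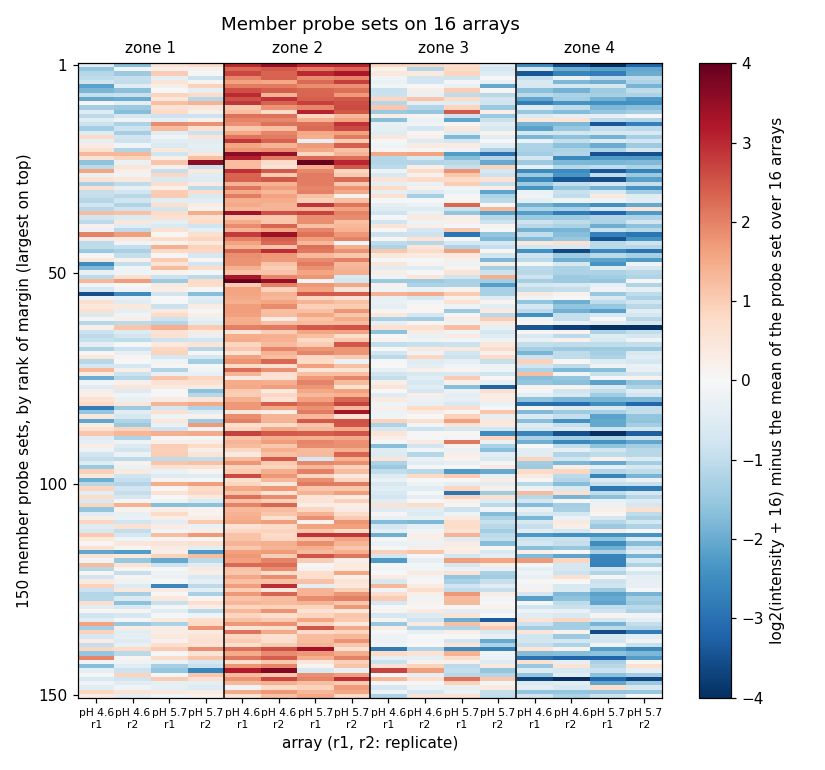
Each row is 1 of the 150 members, ordered by margin from the largest at the top (rank 1) to the smallest (rank 150), and each column is 1 array, grouped by zone with pH 4.6 left of pH 5.7. Colour gives log2(intensity + 16) minus the row mean over 16 arrays, with the scale ending at 4 units either way. The zone 2 columns are the highest block by the choice of members, and zone 4 is the lowest for 110 of the 150.

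Among the named members the largest margin, 2.52, belonged to AT3G05150, which encodes a sugar transporter of the ERD6-like group. Its intensities in zone 2 were 371 and 427 at pH 4.6, against 316 and 374 at pH 5.7. On the 12 arrays of the other zones they were 1.67 to 119.5. The zone 2 arrays did not overlap the others, and the pH groups overlapped in zone 2.

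AT3G50640, with a margin of 2.33, had intensities of 482 and 461 in zone 2 at pH 4.6, against 773 and 1106 at pH 5.7, with 26.9 to 222 in the other zones. AT3G06070, with a margin of 2.27, had 372 and 331 in zone 2 at pH 4.6, against 299 and 278 at pH 5.7, with 1.28 to 111.5 elsewhere. In both genes all zone 2 arrays stood above all others. AT1G54890, a late embryogenesis abundant-related gene with a margin of 2.07, had zone 2 intensities of 1421 and 997 at pH 4.6, against 1307 and 1166 at pH 5.7, and its level in zone 4 was only 13.4 to 22.8. Its shoulder was in zone 1, with 187.5 and 135.9 at pH 4.6, against 437 and 505.5 at pH 5.7.

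Genes for pectin-modifying proteins were a family among the named members, a grouping made after the values were seen. Of 17 probe sets of a list of pectin genes that were tested, 8 were members and 12 had their highest mean in zone 2. Of all 22746 probe sets, 150 were members and 20.1% had zone 2 highest. This list and the family lists below were drawn up after the members' annotation was seen. Their counts of members therefore describe the choice and are no evidence for a family. AT5G51490 and AT3G59850 passed the filter through zone 2 alone. The pectin methylesterase gene AT5G51490, with a margin of 2.14, had zone 2 intensities of 378 and 111 at pH 4.6, against 232 and 146 at pH 5.7, and 3.73 to 76.2 elsewhere. AT3G59850, which encodes a polygalacturonase-type protein and had a margin of 2.04, reached 110 and 193 in zone 2 at pH 4.6, against 216 and 356 at pH 5.7. One zone 3 array at pH 4.6 reached 109.4, close to the lowest zone 2 array.

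AT1G04430, one of the putative pectin methyltransferase genes, was among the brightest members and had a margin of 1.59. Its zone 2 intensities were 3426 and 3010 at pH 4.6, against 4908 and 3437 at pH 5.7, while the other zones lay between 265 and 2410. The related AT4G14360 had a margin of 1.11 and AT3G49720, which acts in pectin methylation in the Golgi, had a margin of 1.05. The pectate lyase-like genes AT5G48900 and AT1G04680 had margins of 1.16 and 1.15, and the pectin acetylesterase gene AT1G57590 had a margin of 1.25.

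Xyloglucan-related genes were fewer. XTH19, a xyloglucan-remodelling enzyme gene with a margin of 1.63, had zone 2 intensities of 3117 and 2274 at pH 4.6, against 1537 and 743 at pH 5.7. One zone 3 array at pH 5.7 reached 1418, so the zones overlapped. XTH16, also with a margin of 1.63, had 421 and 163 in zone 2 at pH 4.6, against 353 and 163 at pH 5.7, with a highest value of 168.4 elsewhere. These were the 2 members among 8 tested XTH probe sets. CSLC04, the gene of a glucan synthase for the xyloglucan backbone, had a margin of 1.06, and EXLA2, an expansin-like gene, one of 1.15. CSLC04 was the only member among 5 tested xyloglucan synthesis probe sets. EXLA2 was the only member among 14 tested expansin and expansin-like probe sets, of which 3 had their highest mean in zone 2.

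GH9B7, a gene of the glycosyl hydrolase family that holds the endoglucanases, had a margin of 1.05. Wall proteins of unknown function with a DUF642 domain contributed 3 of 7 tested probe sets, AT5G11420, AT3G08030 and AT4G32460, with margins of 1.64, 1.43 and 1.21. AT3G08030 had zone 2 intensities of 2628 and 3520 at pH 4.6, against 2082 and 2633 at pH 5.7, and 44.3 to 1180 elsewhere, so zone 2 did not overlap the other zones. Aspartyl protease family genes gave 3 members of 6 tested probe sets, AT1G09750, AT3G54400 and AT5G19110, with margins of 1.19, 1.17 and 1.10. Cysteine/histidine-rich C1 domain genes gave 4, AT4G14980, AT2G19660, AT5G44770 and AT5G43030, with margins of 1.75, 1.47, 1.10 and 1.05. The tested genes of that family were not counted, so the share that were members is not known. AT4G14980, AT2G19660 and AT5G44770 passed the filter through zone 2 alone.

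UPB1 itself was a member, with a margin of 1.06 and zone means of 6.91, 9.65, 8.59 and 6.23. Its zone 2 intensities were 754 and 1125 at pH 4.6, against 590 and 764 at pH 5.7. The shoulder was in zone 3, where 353.5 and 262 were measured at pH 4.6, against 742 and 264 at pH 5.7. One zone 3 array at pH 5.7 thus overlapped zone 2. The 3 tested class III peroxidase genes known to be repressed by UPB1 were not members, and 2 of them had their highest mean in zone 2. Another peroxidase of that class, AT2G18980, was a member with a margin of 1.32.

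**Figure D2:**
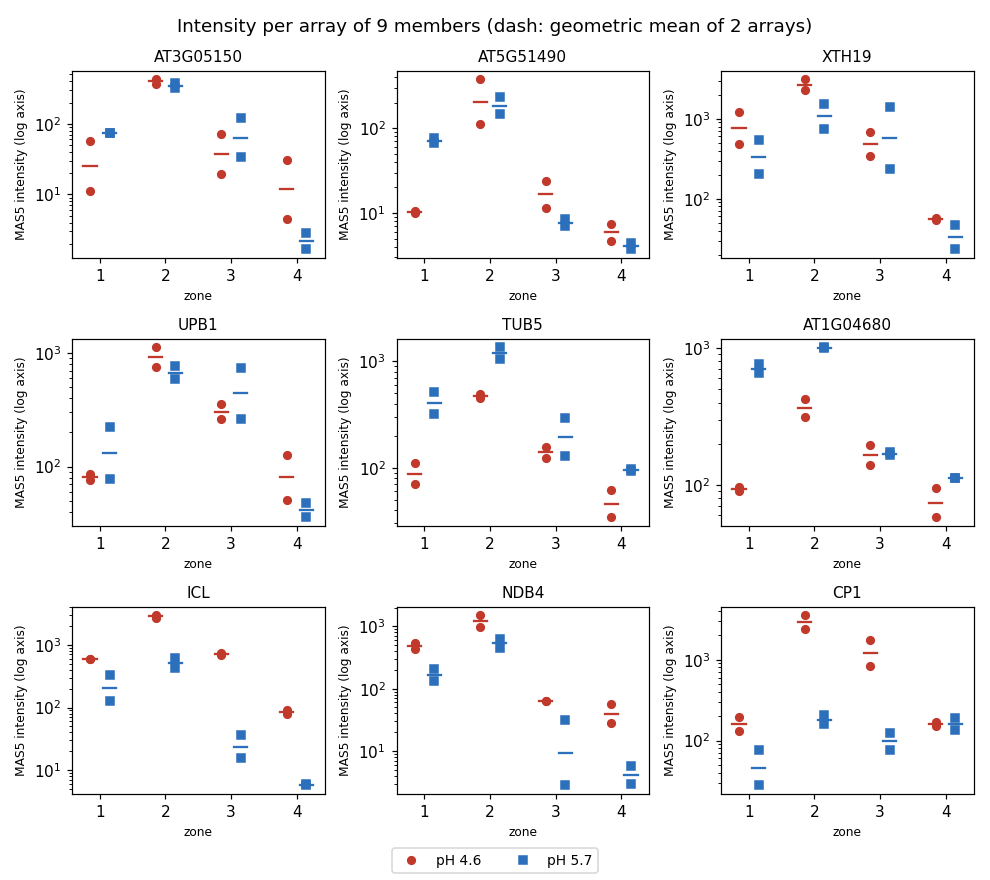
Each panel plots the deposited intensity of 1 member on a log axis against zone 1 to 4, with pH 4.6 left of pH 5.7 in each zone, points for arrays and a dash for the geometric mean of 2 arrays. In zone 2, AT3G05150 had 371 and 427 at pH 4.6, against 316 and 374 at pH 5.7, whereas ICL had 2945 and 2716 at pH 4.6, against 429 and 621 at pH 5.7.

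The zone 2 peak was present at each pH taken alone for nearly all members, in part because both media entered the margin. Zone 2 had the highest mean at pH 4.6 in 149 members and at pH 5.7 in 146, and at both in 145. The median margin was 1.42 at pH 4.6 and 1.10 at pH 5.7, and the margin was larger at pH 4.6 in 101 of the 150. The values behind these margins are those that were ranked, and no share over all probe sets was taken beside them. They are a description, from which no effect of pH on the peak is concluded. Zone 2 was highest at a single pH in 5 members. AT4G02170 was among them, with 491 and 292 in zone 2 at pH 5.7, against 797 and 743 in zone 3. So was AT5G12970, with 415 and 274 in zone 2 at pH 4.6, against 461 and 299 in zone 4.

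A choice made at 1 pH and read at the other separates the choice from the reading. The 150 probe sets with the largest margins at pH 5.7 had zone 2 highest at pH 4.6 in 115 cases, with a median margin of 0.81, where 21.1% of all probe sets had zone 2 highest at pH 4.6. The 150 chosen at pH 4.6 had zone 2 highest at pH 5.7 in 121 cases, with a median margin of 0.66, against 20.2% of all probe sets. The 2 lists shared 51 probe sets. They held 87 and 99 of the 150 members for the choice at pH 5.7 and at pH 4.6. The plot of margins by pH shows the spread of individual members.

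**Figure D3:**
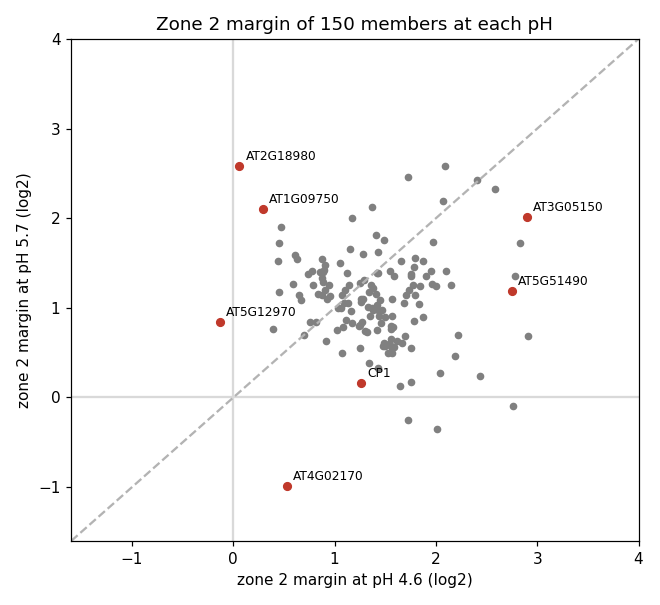
Each point is 1 member, with its margin at pH 4.6 on the horizontal axis and at pH 5.7 on the vertical axis, both in log2 units. The margin was larger at pH 4.6 in 101 members, and points below 0 on an axis are members whose zone 2 mean was not the highest at that pH. The plotted values entered the choice of members, so the difference between the media is a description without a test.

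The low pH effect, pH 4.6 minus pH 5.7, was tested in each zone, as a mean over zones and as a difference between zones. A member was called where the limma test had a Benjamini-Hochberg adjusted p below 0.05 over all 15951 probe sets. Since all zones and both media entered the margin, the member shares below are not independent of the choice. Values with ± are log2 differences with the SE of that fit, from 2 arrays per group.

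In zone 2, where these genes peaked, 3 of 149 members were higher at pH 4.6 and none was lower, 2.01% against 0.42% of all tested probe sets called either way. Higher calls made up 0.313% and lower calls 0.107% of all tested probe sets. A rise in zone 2 at pH 4.6 raises the margin itself, so these shares are not independent of the choice of members. At an unadjusted p under 0.05, 13.4% of the members were higher and 7.38% lower, where 5.92% and 4.68% of all tested probe sets were. The median effect of the members in zone 2 was -0.03, against -0.01 over all tested probe sets. The count was 1 without the first zone 2 array at pH 4.6, 5 without either zone 1 array at pH 4.6, and 8 without either zone 3 array at pH 5.7. It was also 1 without the 4 arrays with raised plastid signal.

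The gene CP1 (AT4G36880), which encodes a papain-type cysteine protease, showed the largest low pH difference of a named member in zone 2. Its intensities there were 2419 and 3532 at pH 4.6, against 158.5 and 206 at pH 5.7, a difference of 3.90 ± 0.42 with an adjusted p of 0.000339. The pH groups were far apart in zone 2, and the pH 5.7 values overlapped those of zone 4, with 168 and 150 at pH 4.6, against 134 and 190 at pH 5.7. In zone 3, CP1 had 1748 and 838 at pH 4.6, against 124 and 77.1 at pH 5.7, a difference of 3.42 ± 0.42 with an adjusted p of 0.000432. The zone 2 peak of CP1 was 1.26 at pH 4.6 and 0.16 at pH 5.7. Both calls held without any single array and under each of the other settings tried.

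ICL, the gene of isocitrate lyase in the glyoxylate cycle, was the other named gene called in zone 2. Its zone 2 intensities were 2945 and 2716 at pH 4.6, against 429 and 621 at pH 5.7, a difference of 2.42 ± 0.38 with an adjusted p of 0.00986. ICL kept its zone 2 peak at both pH values while its whole profile stood higher at pH 4.6. In zone 3 it had 696 and 729.5 at pH 4.6, against 36.6 and 15.5 at pH 5.7, a difference of 4.16 ± 0.38 with an adjusted p of 2.47e-05. In zone 4 it had 80.3 and 92.6 at pH 4.6, against 6.09 and 5.74 at pH 5.7, a difference of 2.22 ± 0.38 with an adjusted p of 0.00502. The zone 1 difference, 1.46 ± 0.38, had an adjusted p of 0.1. Without the second zone 2 array at pH 4.6 the zone 2 difference was 2.47 with an adjusted p of 0.112. Without the first array at pH 4.6 it was 2.36 with an adjusted p of 0.076, and without the first at pH 5.7 it was 2.16 with 0.1. The zone 4 call was also lost without either zone 4 array at pH 4.6, and the zone 3 call held without any single array.

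The third call in zone 2 was the probe set 266415_at, which has no gene name here. It had 1659 and 558 in zone 2 at pH 4.6, against 31.4 and 14.9 at pH 5.7, a difference of 4.68 ± 0.70 with an adjusted p of 0.00617. In zones 3 and 4 all of its arrays were at 33.5 or below. Its zone 2 margin was 2.76 at pH 4.6 and -0.09 at pH 5.7, so it was a member through its pH 4.6 arrays.

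In zone 1 the members were mostly lower at pH 4.6. The zone 1 difference was negative in 107 of 149, 71.8%, against 48.8% of all tested probe sets. Its median was -0.47 (quartiles -1.15 and 0.06), against 0.02 (quartiles -0.38 and 0.42). The 149 include the 30 that passed the filter through zone 2 alone and were dim in zone 1. Zone 1 was the second-highest zone for 76 members, so low zone 1 values at a single pH could raise their margin. The zone 1 shares are therefore not independent of the choice. Calls were few: 6 members were lower and 1 was higher, 4.7% against 0.702% of all tested probe sets called either way, with 0.389% lower and 0.313% higher. At an unadjusted p under 0.05, 28.9% of the members were lower and 7.38% higher, where 6.61% and 6.43% of all tested probe sets were. Both pH 4.6 arrays lay below both pH 5.7 arrays in 70 members, 47%, and above both in 19, 12.8%, against 23.2% and 25.8% of all tested probe sets. In zone 1 the arrays also differed by pH in other ways: the plastid-encoded mean was 9.91 and 10.29 at pH 4.6, against 8.25 and 8.78 at pH 5.7, and the first quartile of intensity was 27.4 and 25.8 at pH 4.6, against 19.3 and 20.1 at pH 5.7. The log2 ratio of the 3' to the 5' GAPDH control probe set, a sign of RNA integrity and labelling, was 7.47 and 5.58 at pH 4.6, against 4.80 and 5.38 at pH 5.7. The same ratio for actin was 5.06 and 6.18 at pH 4.6, against 5.42 and 4.90 at pH 5.7. The part of these differences in the result was not tested. The member median stayed between -0.62 and -0.34 under every setting tried, where the median of all tested probe sets was -0.14 to 0.08. The count of calls was 4 without the first zone 1 array at either pH, 15 without either zone 3 array at pH 5.7, and 19 without the 4 arrays with raised plastid signal. Those 4 were marked by the gap to their own replicate and none is a zone 1 array. Leaving them out therefore keeps the plastid difference between the media in zone 1.

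The pectate lyase-like gene AT1G04680 was the named gene with the firmest zone 1 call. It had 96.9 and 90.8 in zone 1 at pH 4.6, against 658.5 and 759 at pH 5.7, a difference of -2.72 ± 0.30 with an adjusted p of 0.000746, and this call held under every setting tried. In zone 2 it had 426 and 312 at pH 4.6, against 1012 and 997 at pH 5.7, a difference of -1.42 ± 0.30 with an adjusted p of 0.0539, short of the threshold. The pH groups did not overlap in either zone, while in zone 3 the difference was -0.04 ± 0.30.

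TUB5, a beta-tubulin gene with a margin of 1.88, had 70.1 and 110.4 in zone 1 at pH 4.6, against 513 and 322 at pH 5.7, a difference of -2.02 ± 0.39 with an adjusted p of 0.0296. In zone 2 it had 453 and 492.5 at pH 4.6, against 1058 and 1360 at pH 5.7, and the difference of -1.32 ± 0.39 had an adjusted p of 0.186. The zone 1 call was lost without the first zone 1 array at pH 4.6 or either zone 1 array at pH 5.7.

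AT3G06460, a gene of the family of fatty acid elongases related to yeast GNS1/SUR4, had 12 and 55 in zone 1 at pH 4.6, against 169 and 1014 at pH 5.7, a difference of -3.29 ± 0.69 with an adjusted p of 0.0397. The lipid transfer protein family gene AT2G45180 had 212 and 243.5 in zone 1 at pH 4.6, against 1056 and 1112 at pH 5.7, a difference of -2.18 ± 0.46 with an adjusted p of 0.0397. Neither gene overlapped between the media in zone 1, but both calls were lost when most single arrays were left out. In zone 2 AT2G45180 had 3084 and 4885 at pH 4.6, against 2684 and 2253 at pH 5.7, and its difference of 0.66 ± 0.46 was not called.

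Probe sets without a gene name made up the other lower calls in zone 1. The brighter, 250109_at, had 1273 and 969 in zone 1 at pH 4.6, against 8713 and 8112 at pH 5.7, a difference of -2.90 ± 0.30 with an adjusted p of 0.000407. Its zone 2 arrays, at 8321 and 10470 at pH 4.6 and 10800 and 17390 at pH 5.7, differed by only -0.55 ± 0.30. The other, 261129_at, had 158 and 290.5 in zone 1 at pH 4.6, against 1489 and 1217 at pH 5.7, a difference of -2.56 ± 0.35 with an adjusted p of 0.0023.

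The single higher call in zone 1 was NDB3, which encodes an external alternative NAD(P)H dehydrogenase of the mitochondrial inner membrane. It had 147 and 220 in zone 1 at pH 4.6, against 11.5 and 12.7 at pH 5.7, a difference of 2.80 ± 0.42 with an adjusted p of 0.00526. In zone 2 it had 342.5 and 427 at pH 4.6, against 92.5 and 93.5 at pH 5.7, and the difference of 1.87 ± 0.42 had an adjusted p of 0.0686. The media did not overlap in either zone. The zone 1 call was lost, with an adjusted p of 0.0558, without the first zone 1 array at pH 5.7.

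**Figure D4:**
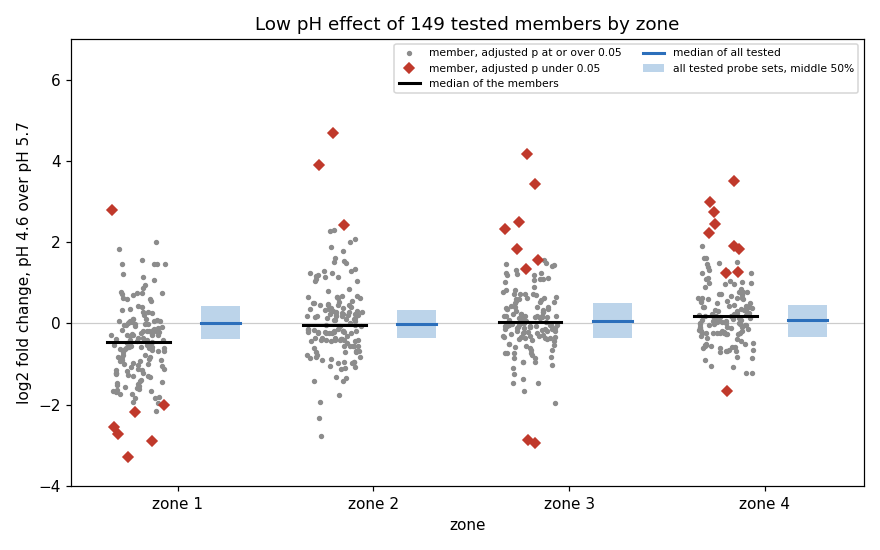
The low pH effect (pH 4.6 over pH 5.7, log2 units) is plotted for each of the 149 tested members as a point, diamonds where called, with a line at their median, beside a bar for the middle 50% of all 15951 tested probe sets, in each zone. The member median in zone 1 was -0.47 against 0.02 for all tested probe sets, while in zone 2 it was -0.03 against -0.01.

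In zone 3, 7 members were higher and 2 lower at pH 4.6, 6.04% against 2.9% of all tested probe sets called either way (1.99% higher, 0.915% lower). The median was 0.04, against 0.06 over all tested probe sets. Besides ICL and CP1, the higher calls included AT5G12970, a gene for a protein with C2 domains, which had 114 and 170.5 in zone 3 at pH 4.6, against 10 and 58 at pH 5.7, a difference of 1.83 ± 0.44 with an adjusted p of 0.0363. That call held in 9 of 16 omissions of a single array and in 5 of 9 other settings, and the difference was 1.08 with an adjusted p of 0.105 without the first zone 3 array at pH 5.7. Lower were AT1G76640, the calmodulin-like gene CML39, at -2.87 ± 0.62 with an adjusted p of 0.0216, and AT4G02170 at -2.95 ± 0.67 with an adjusted p of 0.0287. AT1G76640 was 1 of the 30 members tested only because of their zone 2 level, and the limma test read dim values in zone 3. It had 4.91 and 3.93 in zone 3 at pH 4.6, against 299 and 54.5 at pH 5.7, and its call was lost without either zone 3 array at pH 4.6 or the first at pH 5.7. AT4G02170 had 36.8 and 179 in zone 3 at pH 4.6, against 797 and 743 at pH 5.7, and its call was lost without the first zone 3 array at pH 4.6 or the second at pH 5.7. The unnamed 251503_at was higher by 2.49 ± 0.50 with an adjusted p of 0.0149. The count of calls was 2 without the first and 5 without the second zone 3 array at pH 4.6, and 19 without the first at pH 5.7.

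In zone 4, where the members were dimmest, 9 were higher and 1 was lower at pH 4.6, 6.71% against 3% of all tested probe sets called either way (1.42% higher, 1.58% lower). The median was 0.17, against 0.07 over all tested probe sets. The GAPDH 3' to 5' log2 ratio in zone 4 was 5.58 and 4.86 at pH 4.6, against 3.22 and 3.62 at pH 5.7, and its part in the result was not tested. Among the named genes, the call that held under every setting was that of AT5G43030, one of the C1 domain genes. It had 294 and 225 in zone 4 at pH 4.6, against 2.19 and 15.8 at pH 5.7, a difference of 3.51 ± 0.44 with an adjusted p of 0.000686. AT4G02170 had 821 and 449 in zone 4 at pH 4.6, against 23.6 and 142 at pH 5.7, a difference of 2.98 ± 0.67 with an adjusted p of 0.025, opposite in sign to its zone 3 difference. At pH 5.7 its highest zone was zone 3, not zone 2. AT2G04050, a gene of the MATE family of efflux transporters, differed by 2.74 ± 0.69 with an adjusted p of 0.0436, AT3G45730 by 1.90 ± 0.39 with 0.0153, AT5G12970 by 1.84 ± 0.44 with 0.0333, and AT1G68410, a protein phosphatase 2C family gene, by 1.27 ± 0.33 with 0.0492. The zone 4 calls of AT4G02170, AT2G04050, AT3G45730, AT5G12970 and AT1G68410 were each lost when 1 or more single arrays were left out. That of AT1G68410 held in only 4 of 16 such omissions and 2 of 9 other settings, and that of AT2G04050 in 6 of 16 and 4 of 9. The count was 1 and 2 without the first and the second zone 4 array at pH 4.6, 3 and 5 without the first and the second at pH 5.7, and 16 and 17 without the first and the second zone 3 array at pH 5.7.

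The mean of the 4 zone differences, which sets 8 arrays against 8, gave more calls than any zone alone. Higher at pH 4.6 were 13 members and lower 12, 16.8% against 6.36% of all tested probe sets called either way (3.86% higher, 2.5% lower). The median over members was -0.02, against 0.04. The tested members include the 30 that passed the filter through zone 2 alone, and the mean includes the zone 2 difference. These shares are therefore not independent of the choice of members. The largest rises were those of ICL, 2.57 ± 0.19 with an adjusted p of 6.05e-06, and CP1, 2.20 ± 0.21 with an adjusted p of 5.88e-05. Both genes were higher at pH 4.6 on each pair of arrays in zones 1 to 3. The count was 14 without the first zone 1 array at pH 5.7, 16 and 15 without the first and the second zone 2 array at pH 4.6, and 15 and 13 without the first and the second zone 4 array at pH 4.6.

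NDB4, the second gene of an alternative NAD(P)H dehydrogenase among the members, had 971 and 1504 in zone 2 at pH 4.6, against 631 and 458 at pH 5.7, and no single zone was called. Its mean difference of 1.37 ± 0.22 had an adjusted p of 0.00194, with similar differences of 1.15 to 1.48 in the 4 zones. NDB3 had a mean difference of 1.18 ± 0.21 with an adjusted p of 0.00376. In a list of 5 tested genes of alternative NAD(P)H dehydrogenases, NDB3 and NDB4 were the 2 that rose in the mean over zones, and none fell. NDB1, NDB2 and NDC1 had mean differences of -0.22 ± 0.18, -0.24 ± 0.29 and 0.12 ± 0.17.

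AT5G47550, a cystatin gene whose family inhibits cysteine proteases, had 1674 and 1609 in zone 2 at pH 4.6, against 319 and 442 at pH 5.7. Its zone 2 difference of 2.08 ± 0.44 had an adjusted p of 0.052, and its mean difference of 1.34 ± 0.22 one of 0.00221. AT5G43030 rose by 1.12 ± 0.22 in the mean, with an adjusted p of 0.00734. AT3G45730 rose by 0.84 ± 0.20 with 0.0201, and AT2G23330, a pseudogene in the RefSeq table, by 0.83 ± 0.18 with 0.0145. The call of AT3G45730 was lost without the first zone 1 array at pH 5.7, the second zone 2 array at pH 4.6 or either zone 4 array at pH 4.6. Without the 4 arrays with raised plastid signal AT3G45730 was not called, nor was AT2G23330, at 0.74 with an adjusted p of 0.08.

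Among the lower genes in the mean over zones, AT1G76640, which passed the filter through zone 2 alone, had the largest named fall, -1.61 ± 0.31 with an adjusted p of 0.00592. Its zone 2 intensities were 121 and 82.8 at pH 4.6, against 470.5 and 307 at pH 5.7, without overlap. AT3G06460 followed at -1.37 ± 0.34 with an adjusted p of 0.0274, AT1G04680 at -1.17 ± 0.15 with 0.000373 and TUB5 at -1.15 ± 0.20 with 0.00278. AT1G09750, the aspartyl protease family gene that also serves as a cortex marker, had 92.5 and 77 in zone 2 at pH 4.6, against 317 and 761 at pH 5.7. Its mean difference was -1.10 ± 0.28 with an adjusted p of 0.0284. Smaller falls were those of GH9B7 at -0.55 ± 0.13 with 0.0203, ACLB-1, a subunit gene of ATP-citrate lyase, at -0.52 ± 0.13 with 0.0232, and AT3G49720 at -0.50 ± 0.14 with 0.045. The mean falls of AT1G76640, AT1G04680 and TUB5 held without any single array. Those of AT3G06460, AT1G09750, GH9B7, ACLB-1 and AT3G49720 were each lost without some of them.

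Some families that hold members were also read over all their tested probe sets. Their lists were added after the members' annotation was seen. Beside the family counts, 2.5% of all tested probe sets were called lower and 3.86% higher in the mean over zones. Of 7 tested tubulin probe sets, 6 were lower in the mean over zones and none was higher: TUB1 by -1.48 ± 0.28, TUB5 by -1.15 ± 0.20, TUA6 by -1.13 ± 0.18, TUB9 by -0.68 ± 0.14, TUB6 by -0.56 ± 0.14 and TUB7 by -0.55 ± 0.15. TUA1 differed by 0.26 ± 0.20. Zone 2 was the highest zone in 5 of the 7, against 20.1% of all probe sets, but TUB5 was the only member. The count of lower tubulins was 3 without the 4 arrays with raised plastid signal. Tubulin genes are close paralogs, and probe sets of such genes can share signal.

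Of the 17 tested pectin probe sets, 3 were lower in the mean over zones and none was higher: AT1G04680, AT3G49720 and AT3G24670, the last at -0.90 ± 0.14 with its highest mean in zone 3. The median zone 1 difference of these 17 was -0.97, and 2 of them were called lower there. Over all tested probe sets that median was 0.02, and 0.389% were called lower. Of the 5 tested genes of ATP-citrate lyase and isocitrate lyase, ICL was higher in the mean, and ACLB-1, ACLA-1 (-0.69 ± 0.13) and ACLA-2 (-0.91 ± 0.13) were lower. Of the 7 tested DUF642 genes the 3 members were not called, while AT2G41810, not among the 150, was lower by -1.64 ± 0.35 in the mean. In zone 4, AT1G29980 and AT2G41800, also outside the 150, were higher by 1.60 ± 0.28 and 2.57 ± 0.60. Of 6 tested aspartyl protease genes, 3 were lower in the mean, AT1G09750, AT5G19120 (-1.09 ± 0.19) and AT5G10770 (-1.11 ± 0.22), while AT1G66180, not a member, was higher by 1.86 ± 0.20, with a zone 2 difference of 4.06 ± 0.39. Of 11 tested GH9 genes, GH9B7 and GH9B13 (-1.18 ± 0.23) were lower in the mean and none was higher. Of 14 tested expansin and expansin-like genes, EXPA7 (-1.12 ± 0.30) and EXPA18 (-1.14 ± 0.31) were lower in the mean and none was higher. In zone 3, 3 of the 14 were called lower, and in zone 4, 2 were, against 0.915% and 1.58% of all tested probe sets. None of the 8 tested XTH genes or the 3 UPB1-repressed peroxidase genes was called in any zone or in the mean, and UPB1 itself differed by 0.02 ± 0.25. In zone 2 the UPB1 difference was 0.45 ± 0.51 with an adjusted p of 0.84.

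**Figure D5:**
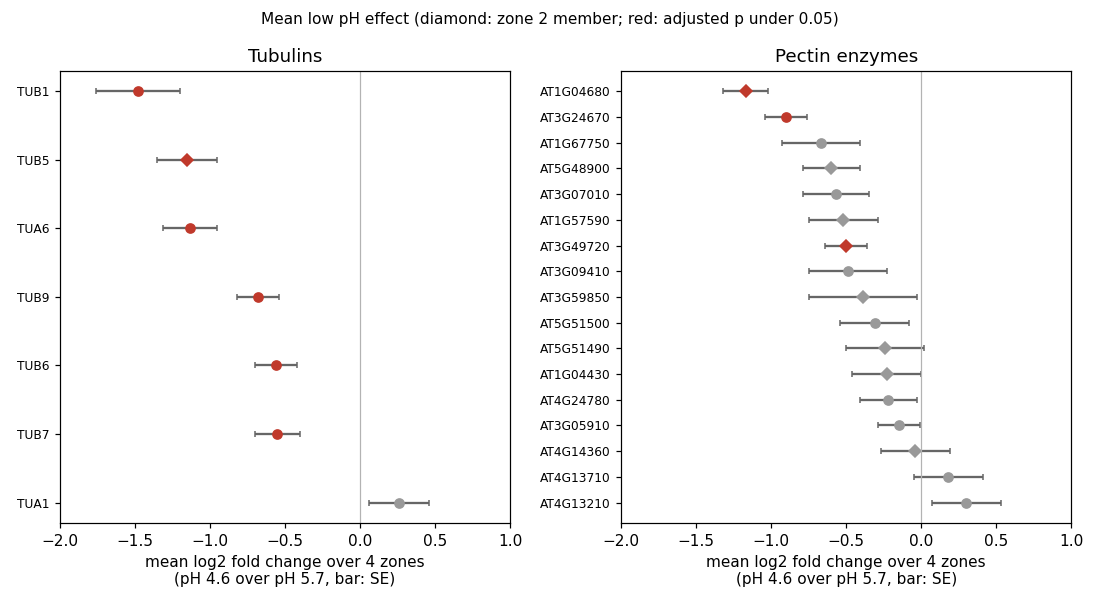
Mean low pH effect over the 4 zones (pH 4.6 minus pH 5.7, log2 units, bars ± SE of the limma fit) for the tested tubulin and pectin-related probe sets, with diamonds for members of the 150 and red for an adjusted p under 0.05. Among tubulins 6 of 7 were called lower, and among pectin-related probe sets 3 of 17 were, where 2.5% of all tested probe sets were.

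Whether the low pH effect in zone 2 differed from that in the other 3 zones was tested directly. No member passed, 0 of 149, where 0.0815% of all tested probe sets did (0.0752% higher, 0.00627% lower). At an unadjusted p under 0.05, 10 members, 6.71%, had a higher and 7, 4.7%, a lower effect in zone 2. Over all tested probe sets 3.54% and 4.06% did. One member passed when the first zone 1 array at pH 4.6, either zone 1 array at pH 5.7 or the first zone 4 array at pH 5.7 was left out.

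The broader test of any difference in the low pH effect among the 4 zones, a moderated F-test, called 11 members, 7.38% against 1.63% of all tested probe sets. The member share is not independent of the choice. CP1 had the smallest adjusted p of the named members, 0.00791, with differences of 1.46 ± 0.42, 3.90 ± 0.42, 3.42 ± 0.42 and -0.01 ± 0.42 in zones 1 to 4. NDB3, at 0.0139, ran from 2.80 ± 0.42 in zone 1 to -1.07 ± 0.42 in zone 4. AT1G04680, at 0.0145, had differences of -2.72 ± 0.30 and -1.42 ± 0.30 in zones 1 and 2 and -0.04 ± 0.30 in zone 3. AT5G12970, at 0.0155, was negative in zone 1, at -1.39 ± 0.44, and positive in zones 3 and 4.

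The peroxidase gene AT2G18980, with an adjusted p of 0.048, changed the shape of its profile between the media. In zone 2 it had 2795 and 2481 at pH 4.6, against 5150 and 5081 at pH 5.7. In zone 3 it had 2454 and 2603 at pH 4.6, against 1913 and 368 at pH 5.7, and in zone 4 it had 1190 and 1059 at pH 4.6, against 316 and 455 at pH 5.7. Its zone 2 margin was therefore 0.06 at pH 4.6 and 2.58 at pH 5.7, although no single zone was called. The F-test count was 6 and 29 without the first zone 3 array at pH 4.6 and at pH 5.7, 3 and 6 without the first and the second zone 4 array at pH 4.6, and 5 and 7 without the first and the second zone 4 array at pH 5.7.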

How the data were processed

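Root RNA from 4 zones at pH 4.6 or pH 5.7 was hybridised to 16 single-colour ATH1 arrays after 2-cycle biotin labelling, per the labels' protocols. The deposited table holds 1 linear intensity per probe set, made with MAS5 per the submitters' processing notes, which name no version here. The mean deposited intensity between the 2nd and 98th percentiles was 250 on every array, so each had been scaled to a common target, and no further normalization was applied. No detection calls were used.

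From 22810 probe sets 64 controls were left out. Names came from the platform annotation, updated through Entrez identifiers to RefSeq TAIR10.1 (13436 of 13513 single-gene probe sets matched). A probe set was tested where at least 1 zone mean of log2(intensity + 16) reached the 40th percentile, 6.05, which left 15951. On this scale the change of dim probe sets is understated. limma 3.58.1 in R 4.3.3 fitted 8 group means (eBayes, trend on; residual degrees of freedom 8, prior 7.27), and two-sided p-values were adjusted over all 15951 by Benjamini-Hochberg. The model was tested on simulated data. Figures were drawn with matplotlib 3.10.9 in Python 3.11.15.

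Members, gene lists and tests were chosen with earlier results of these data known. The pectin, xyloglucan synthesis, tubulin, XTH, expansin, GH9, DUF642, aspartyl protease, alternative dehydrogenase, citrate and UPB1-target lists were added after the members' annotation was seen. Named genes were those among the 30 largest margins, the largest calls each way in each contrast, listed genes, the 3 members and 3 non-members nearest the threshold, and family examples chosen after their values were seen. No coordinates are given, since no build is named for the table. Alternatives changed the pseudocount, filter, scaling, trend, replicate block and arrays used.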

Additional observations from a re-analysis of the deposited data

Results flagged for a closer look

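The F-test of a difference in the low pH effect among the 4 zones called 11 members, of which 7 have a gene name. Their adjusted p-values (limma, Benjamini-Hochberg) were 0.00791 for CP1, 0.0139 for NDB3, 0.0145 for AT1G04680, 0.0155 for AT5G12970, 0.0177 for AT5G43030, 0.0194 for AT4G02170 and 0.048 for AT2G18980. AT5G43030 differed by 3.51 ± 0.44 in zone 4 and by 0.01 ± 0.44 in zone 3. AT4G02170 differed by -2.95 ± 0.67 in zone 3 and by 2.98 ± 0.67 in zone 4. With 2 arrays in each group, no group could be examined for a single array far from its replicates.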

How the results depend on the processing

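Counts of called members depended on the setting more than their directions did: of 35 named calls, 15 held without any single array, 14 held under all 25 alternatives and 0 reversed. Leaving out 1 array at a time gave 4 to 15 calls in zone 1, 1 to 8 in zone 2, 2 to 19 in zone 3, 1 to 17 in zone 4, 13 to 34 in the mean over zones, 0 to 1 in zone 2 minus the other zones and 3 to 29 in the F-test. It gave a zone 1 member median of -0.54 to -0.45, 4 to 6 lower tubulins, and kept 121 to 148 members. A pseudocount of 1 gave 6 calls in zone 4 and 6 in the F-test; a pseudocount of 64 gave 9 in zone 2 and 2 in zone 2 minus the others. The 60th percentile filter gave 5 in zone 2. Centring each array on its median, which moved arrays by -0.20 to 0.34, gave 4 in zone 1, 16 in the mean (10 higher, 6 lower, where 13 and 12 were reported) and 1 in zone 2 minus the others. Without the intensity trend, 4, 5 and 5 were called in zones 1, 3 and 4. Without the 4 arrays with raised plastid signal, an alternative chosen after seeing the data, 19 were called in zone 1, 1 in zone 2, 4 in the F-test and 3 tubulins. None of those 4 arrays is from zone 1. The rule kept 87 members from the pH 5.7 arrays alone and 99 from the pH 4.6 arrays alone. The causes were not tested. With the replicate number as a block, the counts were 8, 4, 9 and 9 in zones 1 to 4, 24 in the mean, 0 in zone 2 minus the others and 11 in the F-test; correlations of same-numbered deviations over 28 pairs of groups ran from -0.26 to 0.42, 9 of them over 0.1, so the numbers were not taken as a pairing, although all 4 arrays with raised plastid signal are second replicates. The block ended the zone 4 call of AT1G68410 (adjusted p 0.0519) and the mean call of AT3G49720 (0.051). Low signal limits the zone 4 comparisons, where the members' median was 5.84.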
